A study of Homo sapiens with 6 samples.

Results

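CCDC genes carry a provisional name given to proteins with a predicted coiled-coil domain, so the set is held together by a protein feature and not by a common pathway. They were examined in native RIP-seq of ORC1 (RNA immunoprecipitation with sequencing), in which an antibody pulls a protein out of a lysate and the RNA that comes with it is sequenced. Members were all rows with a symbol made of CCDC, a number and an optional letter, leaving out pseudogene and antisense symbols. This gave 122 of the 23013 genes of the table. Of these, 107 had a mean normalised read count of at least 10 over the 6 libraries and were tested, and 15 did not.

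Nuclei came from HCT116, an established line of human colorectal cancer, and the labels list all 6 samples as untreated. The groups were 3 input libraries, made from nuclear RNA without antibody, and 3 ORC1 IP libraries, made from RNA recovered with an anti-ORC1 antibody. Labels number both groups by RIP replicate 1 to 3, and nothing in the labels says that replicates came from separate cultures, so p-values measure the spread between these libraries only. A control antibody library was not analysed here, so IP was compared with input alone.

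A coiled coil is a pair or bundle of alpha helices wound around each other, and such rods build scaffolds, tethers and motors' cargo adaptors. The surface positions of a coiled coil are rich in charged residues, among them glutamate, which is encoded by GAA and GAG. Members known by function fall mainly into the centrosome and cilium, with others in the mitochondrion, endosomes and the nucleus. ORC1 is a subunit of the origin recognition complex, which marks the places where DNA replication starts.

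Recovered whole reads per library ranged from 13703033 to 17248924 in inputs and from 25134156 to 36008733 in ORC1 IPs. The epithelial markers of the line summed to 47501 to 138181 normalised counts in inputs and to 16574 to 144917 in IPs, with 6 of 8 listed markers in the table and VIL1 at or near 0 (0 to 6.30). ORC1 IP replicate 2 was the lowest library for KRT8 (6930, against 82363 in IP replicate 1). It was also the lowest for KRT19 (4632), KRT18 (2794), EPCAM (1656) and CDH1 (560). Of 9 listed markers of other cell types, 3 were in the table, and they summed to 173 to 325 in inputs and 446 to 834 in IPs, most of it COL1A1. The part of these differences in the results was not tested. Inputs and IPs are RNA from nuclei of the same line, so these sums give RNA levels and not numbers of cells.

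CCDC transcripts were more often higher in ORC1 IP than the genes of the table as a whole. With limma on log2(normalised count + 1), 15 of 107 members (14.0%) were higher in IP at an adjusted p under 0.05, where 2.28% of all 16513 tested genes were. No member was lower by limma, against 1.42% of all genes, and none was by edgeR or DESeq2, against 1.31% and 4.35%. At an unadjusted p under 0.05, 35 members were higher (32.7%, against 12.2% of all genes) and 1, CCDC71, was lower (0.935%, against 9.45%). The study used a looser cut on DESeq2 values (log2 fold change above 1 and unadjusted p below 0.05). With limma values, the same limits were passed by 32 members (29.9%) and by 10.9% of all genes. The mirror of this cut below -1 was passed by 0 members and by 7.25% of all genes.

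The median log2 fold change of the 107 members was 0.69, and that of all tested genes was 0.01. Fold changes of IP over input were positive in 82 members (76.6%, against 50.7% of all genes) and negative in 25. All 3 IPs lay above all 3 inputs in 34 members (31.8%, against 12.7% of all genes). All 3 IPs lay below all inputs in 3 members, CCDC71, CCDC85B and CCDC117 (2.80%, against 13.5%). The middle 50% of members lay between 0.08 and 1.49 on the log2 scale, and the extremes were -0.90 for CCDC71 and 4.42 for CCDC146.

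**Figure D1:**
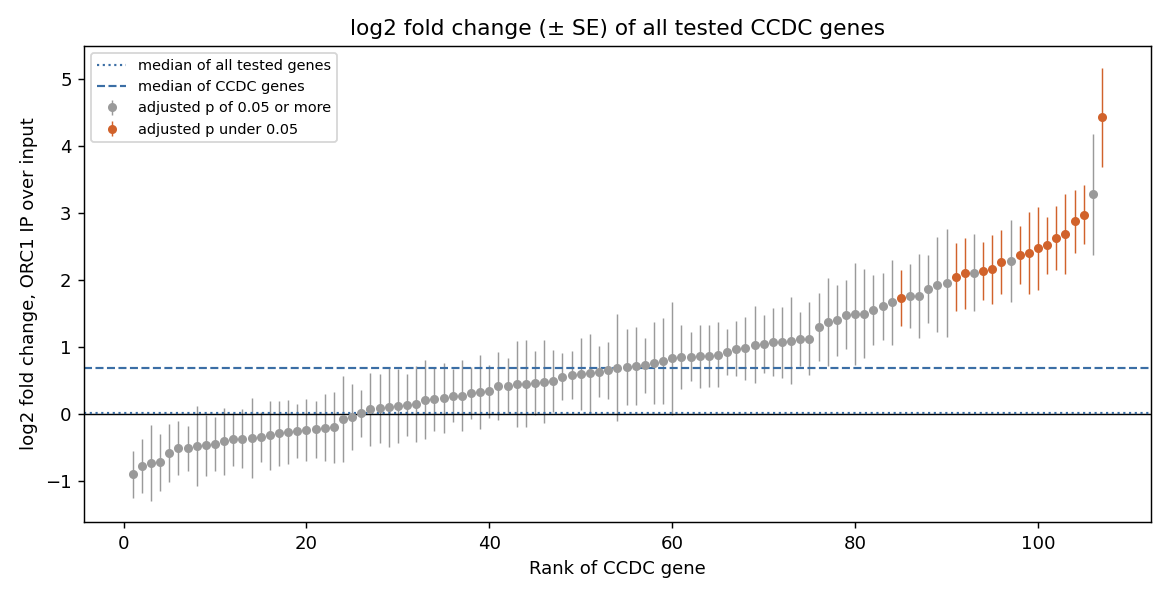
Each point is 1 of the 107 tested CCDC genes, ordered by its log2 fold change of ORC1 IP over input (y axis, log2(normalised count + 1) scale), with bars of 1 SE from limma. The 15 genes with an adjusted p under 0.05 (orange) lie between 1.73 and 4.42, the dashed line is the member median of 0.69, and the dotted line is the median of all tested genes at 0.01.

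Of the 15 members called higher, 7 hold at least 3 GAA triplets in a row within the coding part of their canonical transcript. These stretches are printed because the study looked at GAA repeats in RNAs bound by ORC1, and because GAA is also a codon of glutamate. The study described the repeats as a common feature of these RNAs. From crosslink positions and gel shift assays it held that they are not what ORC1 binds. Each stretch is given 5′ to 3′ on the transcript strand with up to 24 flanking bases of the same exon, and the capitals mark the uninterrupted GAA run.
CCDC146: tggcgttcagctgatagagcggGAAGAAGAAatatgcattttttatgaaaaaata
CCDC18: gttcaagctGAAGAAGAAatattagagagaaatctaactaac
CCDC82: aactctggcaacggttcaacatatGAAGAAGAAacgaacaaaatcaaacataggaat
CCDC34: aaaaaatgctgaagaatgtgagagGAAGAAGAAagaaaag
CCDC15: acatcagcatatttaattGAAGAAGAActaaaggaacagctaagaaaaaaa
CCDC88A: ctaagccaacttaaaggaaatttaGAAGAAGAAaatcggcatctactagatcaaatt
CCDC136: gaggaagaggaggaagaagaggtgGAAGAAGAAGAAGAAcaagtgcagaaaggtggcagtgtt

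The sequences are from GENCODE v44 transcripts on GRCh38. The stretch of CCDC146 lies in exon 15 of 19 (chr7:77282557-77282611, plus strand), that of CCDC18 in exon 8 of 29 (chr1:93205510-93205551, plus) and that of CCDC82 in exon 4 of 10 (chr11:96384388-96384444, minus). CCDC34 has it in exon 4 of 6 (chr11:27341392-27341431, minus), CCDC15 in exon 3 of 16 (chr11:124959115-124959165, plus), CCDC88A in exon 23 of 33 (chr2:55312520-55312576, minus) and CCDC136 in exon 2 of 18 (chr7:128794389-128794451, plus). In 6 of the 7 the run is in frame, so that each capital triplet is a glutamate codon, and in CCDC34 it is out of frame. CCDC136 has the longest run, with 5 units, and the others have 3.

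The centrosome, centriole and satellite list had 16 tested members, of which 5 were called higher (2.28% of all genes were) and 15 were positive (50.7% of all genes), with a median log2 fold change of 1.77. Centrioles are the microtubule cylinders at the core of centrosomes and at the base of cilia, and satellites are the granules around them that hold PCM1. In 11 of the 16, all IPs lay above all inputs, as they did in 12.7% of all genes. The list had medians of 39.8% GC, 2095.5 nt of coding length and 5.71% GAA codons. All coding genes had 49.0%, 1425 nt and 2.66%. These features went with fold change over all genes (below), and their part in the counts of this list was not tested.

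CCDC146, a microtubule-associated protein of centrioles and the sperm flagellum, had normalised read counts of 45.4, 3.15 and 16.4 in inputs 1 to 3 and of 200.3, 568 and 288 in IPs 1 to 3. The groups did not overlap, and the lowest input and the highest IP were both of replicate 2. Means were 21.6 ± 21.6 and 352 ± 192 (SD, n = 3), the log2 fold change was 4.42 (SE 0.74), and the adjusted p by limma was 0.0113. CCDC146 had the largest fold change of the members, from inputs of few reads.

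CCDC18, which the list places at satellites, had 266, 121 and 81.9 in the inputs and 1184, 1280 and 866 in the IPs. The lowest IP was far above the highest input. The log2 fold change of 2.97 (SE 0.44) had the smallest adjusted p of all members by limma, 0.00806. CCDC66, a satellite protein that binds microtubules and is needed for cilium assembly, had 243, 143 and 84.2 in the inputs and 1049, 875 and 610.4 in the IPs, all IPs again above all inputs. Its log2 fold change was 2.52 (SE 0.43, limma adjusted p 0.0116).

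CCDC15, a protein of the inner wall of the centriole, had 62.3, 42.6 and 44.5 in the inputs and 425, 199 and 203 in the IPs. IP replicate 1 was the high one here, and the groups did not overlap (log2 fold change 2.37, SE 0.44, limma adjusted p 0.0172). CCDC14, a satellite protein that binds PCM1, was the most abundant of the 5 called members of this list, with 920.1, 566 and 335 in the inputs and 2225, 3449 and 1925 in the IPs. The lowest IP was above the highest input (log2 fold change 2.13, SE 0.43, limma adjusted p 0.0235).

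CCDC112 of the same list had 227, 36.2 and 51.5 in the inputs and 485, 459 and 227.3 in the IPs, so that IP replicate 3 and input replicate 1 were level. Its log2 fold change of 2.28 had a limma adjusted p of 0.0577, which was 0.0216 with the replicate number as a block. CCDC41, named CEP83 in GENCODE v44 and a protein of the distal appendages by which centrioles dock at the membrane, had a limma adjusted p of 0.0595 and of 0.0213 with the block.

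Of 10 tested satellite genes that carry other names, 6 were called higher (2.28% of all genes were) and 10 were positive (50.7% of all genes). Their median was 2.04. CEP290 had a log2 fold change of 3.54 (limma adjusted p 0.00477), CEP152 of 3.28 (0.00543) and PCM1, the scaffold of satellites, of 2.41 (0.0401). OFD1 (2.15), CEP63 (2.13) and KIAA0753 (1.96) were called too.

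The cilium, axoneme and sperm flagellum list had 17 tested members (median 0.83). All 17 had a positive fold change (50.7% of all genes), and 2 were called, where 2.28% of all genes were. Axonemes are the microtubule cores of motile cilia and flagella, and most of these genes were low, with a median input level of 19.3 normalised counts. The filter took inputs and IPs together, so genes with an input mean under 10 could pass only with a higher IP mean. In this list they were CCDC147 (input mean 5.67), CCDC173 (5.83), CCDC19 (8.45) and CCDC108 (9.74), whose positive sign is no separate support. CCDC34, needed for the sperm flagellum, had 430.5, 83.5 and 79.6 in the inputs and 1514, 519.6 and 633 in the IPs. Input replicate 1 was well above the other inputs and still below every IP (log2 fold change 2.47, SE 0.62, limma adjusted p 0.0479). The call was lost with edgeR (adjusted p 0.0664) and with a minimum mean of 50 (limma adjusted p 0.0526).

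CCDC11, named CFAP53 in GENCODE v44 and needed for left-right body asymmetry, had 25.3, 17.3 and 15.2 in the inputs and 79.4, 136 and 79.0 in the IPs, with no overlap (log2 fold change 2.27, SE 0.48, limma adjusted p 0.0276). CCDC147, named CFAP58 and a sperm flagellum protein, had the second largest fold change of all members, 3.28, but its inputs were 15.8, 0 and 1.17 and its IPs 36.8, 25.5 and 32.1. It was not called (SE 0.90, limma adjusted p 0.0616), and the replicate block gave 0.0300 in limma and 0.0613 in edgeR. CCDC104, named CFAP36, had 600.4, 162 and 195 in the inputs and 1255, 659 and 509 in the IPs, where IP replicate 3 was below input replicate 1 (log2 fold change 1.48, limma adjusted p 0.115).

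Among 5 tested genes of axonemal rulers and nexin-dynein links that are no CCDC genes, 0 were called by limma and 4 were positive (50.7% of all genes). Their median was 0.37. At an unadjusted p under 0.05, 2 were higher (12.2% of all genes were). Of these 5 genes, edgeR called 0 and DESeq2 called 2 higher (7.67% of all genes).

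The germ line list had 4 tested members (median 1.89). Of these, 3 were called higher (2.28% of all genes were) and 4 were positive (50.7% of all genes). The list had medians of 39.2% GC, 2980.5 nt of coding length and 7.48% GAA codons, and the part of these features was not tested. CCDC110, a cancer/testis antigen, had 42.2, 9.46 and 9.36 in the inputs and 63.3, 112 and 93.9 in the IPs, and input replicate 1 was the closest to the IPs without reaching them. Its limma adjusted p of 0.0498 was the largest of the 15 and became 0.0506 with the replicate block and 0.0721 by edgeR without it (log2 fold change 2.40, SE 0.61). CCDC62, needed for acrosome formation in mice, had 27.4, 17.3 and 16.4 in the inputs and 64.5, 145 and 65.6 in the IPs. The groups did not overlap, the limma adjusted p was 0.0479, and with the block it was 0.0653.

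CCDC136, a protein of the acrosome, had 127, 59.9 and 73.7 in the inputs and 348, 237 and 254 in the IPs. All IPs were above all inputs, and 1.73 (SE 0.41) was the smallest log2 fold change of the 15 (limma adjusted p 0.0415, and 0.0559 by edgeR with the replicate block). It was also the called member with the highest GC content, 53.9%.

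**Figure D2:**
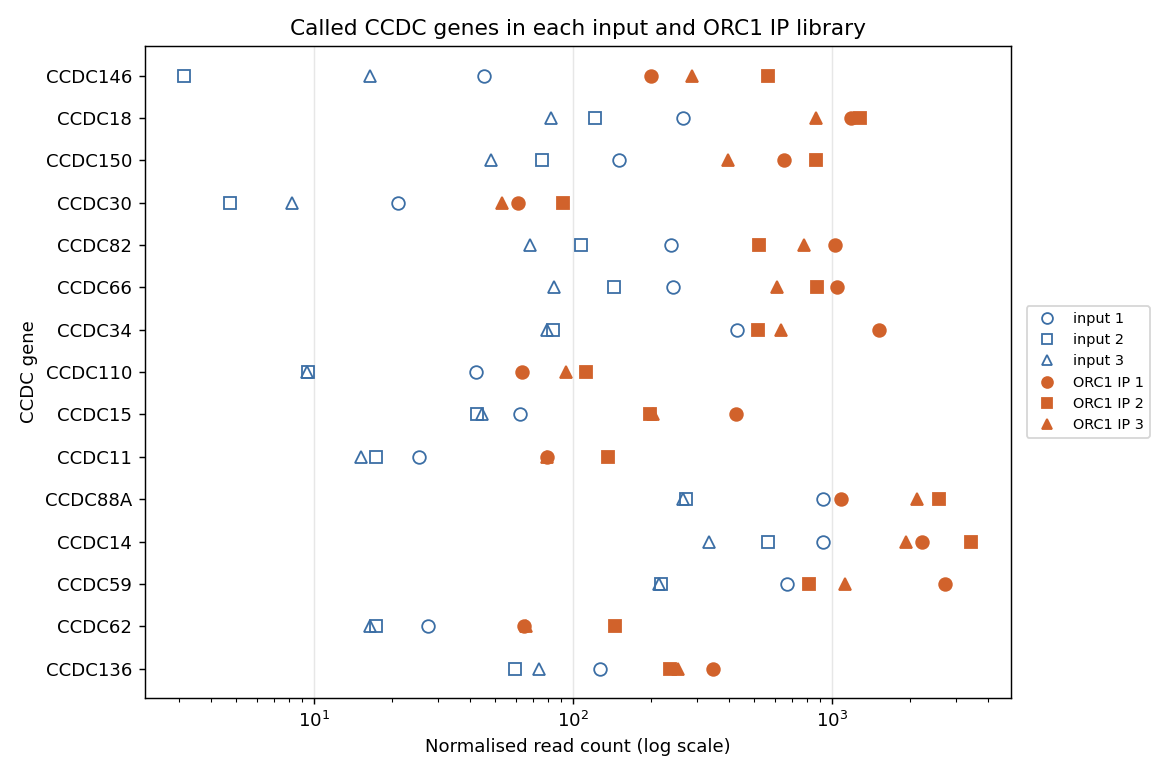
Normalised read counts (x axis, log scale) of the 15 CCDC genes called higher, in each input (open blue) and ORC1 IP library (filled orange), with the marker shape giving the replicate number. In every row the 3 IPs lie to the right of the 3 inputs, and the circle of input replicate 1 is the highest input in 15 of 15. The genes were called on these same libraries.

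The nuclear list, of RNA processing, nucleolus and chromatin, had 13 tested members (median 0.28). Of these, 1 was called higher (2.28% of all genes were) and 9 were positive (50.7% of all genes). CCDC59, a cofactor of the lung transcription factor TTF-1, had 670.0, 217 and 214 in the inputs and 2718, 817 and 1122 in the IPs. All IPs were above all inputs, and input replicate 1 came closest to them (log2 fold change 2.10, SE 0.53, limma adjusted p 0.0486, and 0.0502 with a pseudocount of 0.5). CCDC174, a protein associated with the exon junction complex, had a log2 fold change of 2.11 with a limma adjusted p of 0.0592, which was 0.00986 with the replicate block.

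CCDC137, found in the nucleolus and at the surface of mitotic chromosomes, had 1532, 1546 and 1412 in the inputs and 5560, 1653 and 2181 in the IPs. The inputs were close together and IP replicate 1 stood apart from the other two (log2 fold change 0.86, SE 0.46, limma adjusted p 0.305). CCDC86, a nucleolar protein, had 985, 2851 and 1493 in the inputs and 4714, 619 and 1224 in the IPs, so that replicate 1 was higher in IP and replicate 2 was lower. The log2 fold change was -0.08 (SE 0.64) by limma, 0.30 by edgeR and 0.28 by DESeq2, so that its sign depended on the tool.

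The list of cell division, actin and signalling adaptors had 11 tested members (median 0.70). Of these, 1 was called higher (2.28% of all genes were) and 7 were positive (50.7% of all genes). CCDC88A, or girdin, an actin-binding adaptor that links receptors to G proteins, had 924, 273 and 264 in the inputs and 1080.0, 2598 and 2128 in the IPs. Replicate 1 had nearly the same level in IP and input, and replicates 2 and 3 were far apart (log2 fold change 2.16, SE 0.51, limma adjusted p 0.0401). CCDC6, known as a fusion partner of RET in thyroid cancer, had 2771, 1639 and 1436 in the inputs and 5602, 3396 and 3026 in the IPs. All IPs were above all inputs and the replicates gave log2 ratios of 1.02 to 1.07, but the limma adjusted p of its log2 fold change of 1.05 was 0.182.

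The membrane traffic and endoplasmic reticulum list had 10 tested members with 0 called by limma and 7 positive (50.7% of all genes). The median was 0.78. At an unadjusted p under 0.05 the list had 2 higher (12.2% of all genes were), edgeR called 0 and DESeq2 called 1 higher (7.67% of all genes). CCDC47, a membrane protein of the endoplasmic reticulum that helps insert other membrane proteins, had the highest input level of all members, with 3268, 3497 and 2662 in the inputs and 10348, 1915 and 6763 in the IPs. IP replicate 2 was below all inputs while the other two were above (log2 fold change 0.71, SE 0.58, limma adjusted p 0.518). CCDC22 and CCDC93 join the Commander complex, which recycles endosomal cargo. CCDC22 had 298, 476 and 473 in the inputs and 272, 149 and 330.2 in the IPs (log2 fold change -0.77, SE 0.40, limma adjusted p 0.290). CCDC93 had the opposite sign (log2 fold change 1.40, SE 0.53, limma adjusted p 0.151), with 898, 919 and 577 in the inputs and 4257, 798 and 2560 in the IPs. Neither was called by limma or edgeR, and DESeq2 called CCDC93 higher (adjusted p 0.0273).

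The 13 listed partners of CCDC22 and CCDC93 in Commander (10 COMMD genes, C16orf62, DSCR3 and VPS29) were all negative, where 50.7% of all genes were positive. Limma called 0 of them, and their median was -0.79. Of these, 6 were lower at an unadjusted p under 0.05 (9.45% of all genes were), edgeR called 0 and DESeq2 called 3 lower (4.35% of all genes). The smallest limma adjusted p among them was 0.0545, for COMMD9 (log2 fold change -1.43).

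The mitochondrial list had 5 tested members, with 0 called by limma, edgeR or DESeq2 and 0 at an unadjusted p under 0.05. Of these, 1 was positive (50.7% of all genes). The median was -0.47, and no other role list of CCDC genes had a median below 0. CCDC109B, named MCUB and an inhibitory subunit of the mitochondrial calcium uniporter, had 395, 167 and 293 in the inputs and 66.8, 361 and 174 in the IPs. Its sign differed between replicates (log2 fold change -0.73, SE 0.56, limma adjusted p 0.488). CCDC51, a subunit of a mitochondrial potassium channel, had 761, 1437 and 1182 in the inputs and 966, 400.0 and 1001 in the IPs, also with overlap (log2 fold change -0.58, limma adjusted p 0.468). Of 4 other tested uniporter genes, 0 were called by limma, edgeR or DESeq2, and 1 was lower at an unadjusted p under 0.05 (9.45% of all genes were). Positive were 2 (50.7% of all genes), with a median of -0.24.

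No role was assigned to 31 tested members (median 0.34). Of these, 3 were called higher (2.28% of all genes were) and 22 were positive (50.7% of all genes). CCDC150 had 151, 75.6 and 48.0 in the inputs and 653, 868 and 396 in the IPs. The lowest IP was well above the highest input (log2 fold change 2.88, SE 0.47, limma adjusted p 0.0111). CCDC82 had 238, 107 and 67.9 in the inputs and 1022, 524 and 779 in the IPs, with no overlap (log2 fold change 2.63, SE 0.47, limma adjusted p 0.0149). CCDC30 was low, with 21.1, 4.73 and 8.19 in the inputs and 61.0, 91.2 and 52.9 in the IPs, and did not overlap either (log2 fold change 2.68, SE 0.60, limma adjusted p 0.0323).

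**Figure D3:**
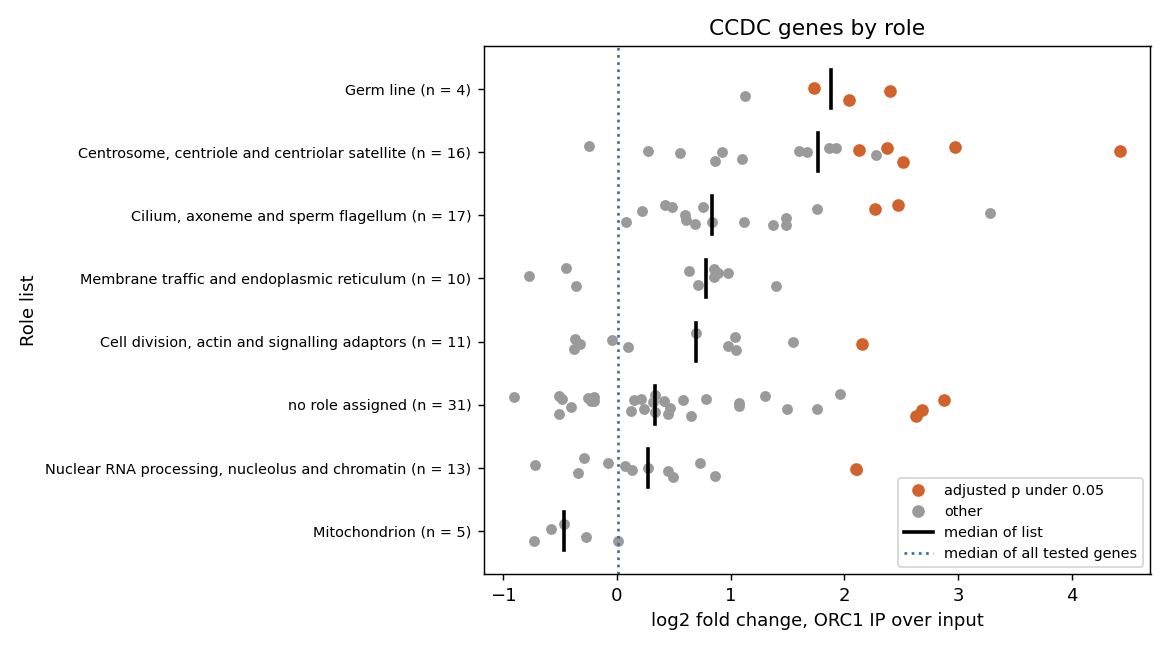
log2 fold change of ORC1 IP over input (x axis) of each tested CCDC gene by role list (y axis, number tested in brackets), with orange points for an adjusted p under 0.05, black bars at the median of each list and a dotted line at the median of all tested genes. Medians run from -0.47 in the mitochondrial list to 1.89 in the germ line list. Differences between lists were not tested, and the lists also differ in GC content, coding length and GAA codons, which were not adjusted for.

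The members lowest in IP relative to input did not pass the test. CCDC71 had 771, 1190 and 1189 in the inputs and 611, 434 and 629.7 in the IPs, with all IPs below all inputs. It had a log2 fold change of -0.90 (SE 0.35) and the smallest limma adjusted p among negative members, 0.158. CCDC85B, a small protein that represses transcription, had 1271, 1311 and 2771 in the inputs and 1207, 685 and 1242 in the IPs. Its highest IP was just below its lowest input (log2 fold change -0.72, limma adjusted p 0.346).

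CCDC117 had 1495, 1664 and 1304 in the inputs and 1027, 1065 and 1025 in the IPs, close together and also without overlap (log2 fold change -0.51, limma adjusted p 0.404). CCDC167 (-0.51, limma adjusted p 0.497) and CCDC159 (-0.48, limma adjusted p 0.692) completed the 8 most negative.

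Per length, the members with the highest input levels were CCDC85B (1853 normalised counts per kb of merged exons), CCDC124 (1348), CCDC47 (722), CCDC137 (627) and CCDC71 (586). None of these 5 was called. CCDC124, a ribosome-binding protein, had 1722, 2474 and 2519 in the inputs and 6807, 1038 and 1862 in the IPs, higher in IP in replicate 1 only (log2 fold change 0.10, limma adjusted p 0.945). Its sign turned to -0.12 with scaling by total count. Input levels of the members as a whole had a median of 157 normalised counts, against 336 over all tested genes.

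The RIP replicates differed in how they ordered the members. The median log2 ratio of IP over the input of the same number was 0.61 in replicate 1, 1.05 in replicate 2 and 0.41 in replicate 3, with 78, 81 and 69 of 107 members positive. In 50 members all 3 replicates were positive and in 5 all were negative, where the shares over all genes were 19.8% and 19.2%. Across the 107 members, which share the 6 libraries, Spearman's rho was 0.03 between replicates 1 and 2, 0.54 between 1 and 3 and 0.53 between 2 and 3. All 15 called members were positive in every replicate, but they were called on these same libraries, so this is no separate support. The highest IP was that of replicate 2 in 9 of them and of replicate 1 in 6.

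**Figure D4:**
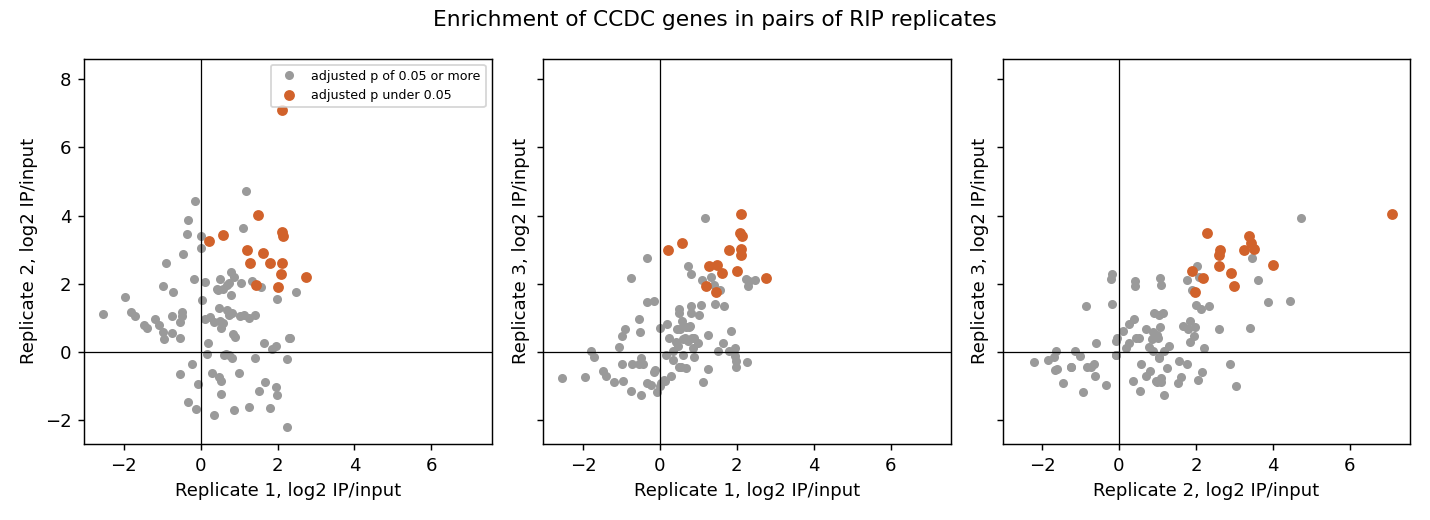
log2 ratio of ORC1 IP over the input of the same number for the 107 tested CCDC genes, 1 panel for each pair of replicates (both axes log2(normalised count + 1) differences). The called genes (orange), which were called on these same libraries, lie in the upper right of all 3 panels. Spearman's rho over all 107 genes was 0.03 for replicates 1 and 2, 0.54 for 1 and 3 and 0.53 for 2 and 3.

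At the median, called members had long coding sequences, poor in GC and rich in GAA. Their whole transcripts had a median of 3335 nt, against 2432 nt in the other members and 3361 nt over all coding genes. Their median gene length, introns included, was 64677 nt, against 27310 nt and 33467 nt. Their median coding length was 2814 nt, against 1401 nt in the other members and 1425 nt over the 12499 coding genes with a matched transcript. Single coding lengths ran from 723 nt in CCDC59 and 1119 nt in CCDC34 to 5613 nt in CCDC88A. The median GC content of called members was 39.1%, against 54.0% and 49.0%. GAA made up 8.45% of codons at the median of called members, 3.63% in the other members and 2.66% over all genes. Glutamate codons of both kinds differed less, at 13.2%, 11.2% and 6.94%. The 25 negative members had a median coding length of 837 nt and 1.67% GAA codons.

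Across 106 coding members, which share libraries and base composition, the log2 fold change had a Spearman's rho of 0.68 with the number of GAAGAA hexamers in the transcript, 0.66 with the share of GAA codons, 0.54 with coding length and -0.45 with GC content. Over all 12499 genes these were 0.49, 0.35, 0.50 and -0.20. The rho of gene length was 0.52 over members and 0.35 over all genes, and that of transcript length was 0.34 and 0.40. Mean input level, which also enters the fold change, had a rho of -0.34 over members and -0.18 over all genes. Over members it was 0.06, -0.56 and -0.15 in replicates 1, 2 and 3. Median input level was 91.5 in called members, 177 in the other members and 558 over all coding genes. The rho of GAA codon share was 0.28, 0.54 and 0.71 in replicates 1, 2 and 3, and that of GC content was -0.03, -0.46 and -0.55. A run of at least 3 GAA units, searched on the transcript strand, occurred in 27 of 106 members (25.5%), in 7 of the 15 called (46.7%), in 0 of the 25 negative and in 14.7% of all coding genes. Among transcripts of 2000 to 5000 nt, it occurred in 26.8% of members and 12.7% of all genes.

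**Figure D5:**
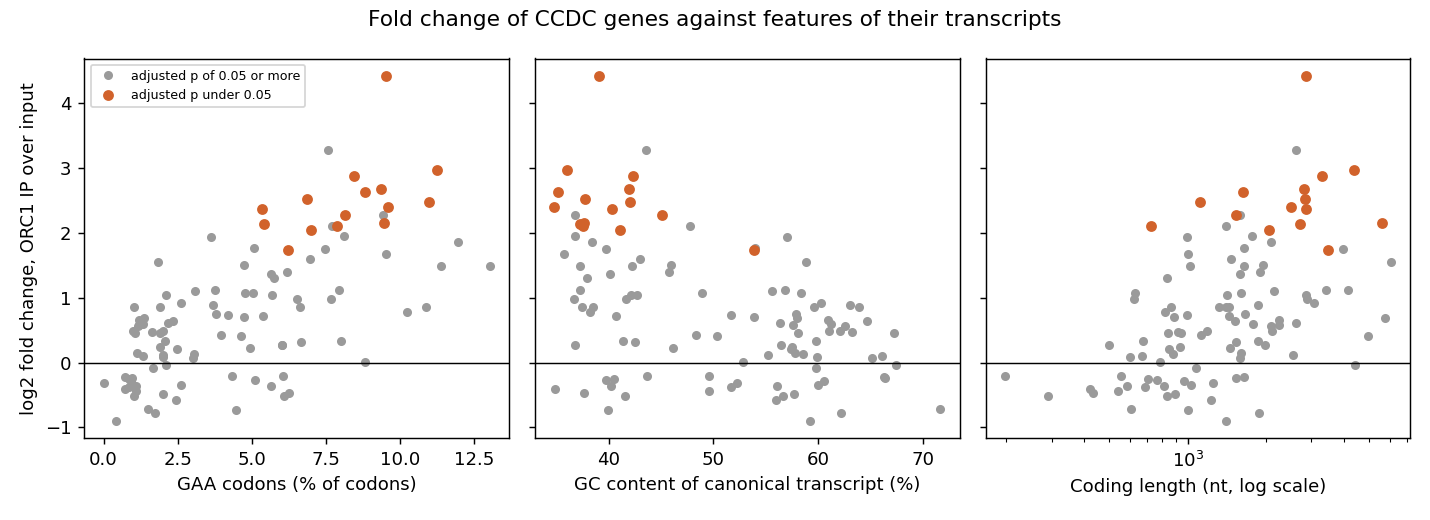
log2 fold change of ORC1 IP over input (y axis) of the 106 coding CCDC genes against the GAA share of codons (%), the GC content of the canonical transcript (%) and the coding length (nt, log scale), with called genes in orange. The called genes hold 5.36% to 11.3% GAA codons, and their GC content runs from 34.8% to 53.9%, with CCDC136 the highest.

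Members with a transcript under 45% GC and a coding length of at least 1500 nt were 23, all of them positive (79.4% of such genes were). Both cuts were chosen with earlier results of these data known, so these counts describe the members and are no separate support. The median log2 fold change of the 23 was 2.13, against 0.61 for the 2242 genes of that kind. Of the 23, 11 members (47.8%) were called higher, against 8.39% of such genes. Of the 83 other coding members, 4 (4.82%) were called, against 1.2% of such genes, and their median was 0.45 against -0.08. The 4 were CCDC34, CCDC59, CCDC11 and CCDC136. Among the 23, the members nearest to 0 were CCDC138 (0.28) and CCDC125 (0.31). CCDC147, CCDC148, CCDC173 and CCDC80 of the 23 had input means of 5.67, 8.69, 5.83 and 7.04. With inputs this low they could pass the filter only through higher IPs, so their positive sign is no separate support.

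The number of calls depended on single libraries. Without input replicate 3, limma made 0 calls (24 members were higher at an unadjusted p under 0.05) and the adjusted p of the 15 ran from 0.0668 to 0.301. Without input replicate 2 there were 4, while the share of all genes called higher fell from 2.28% to 0.0363% and 0.291%. Leaving out IP replicate 1, 2 or 3 gave 9, 27 and 2 calls, where 1.19%, 11.9% and 0.145% of all genes were called higher. Leaving out input replicate 1 gave 21 (2.44% of all genes). The highest input of all 15 called members was input replicate 1, as it was for 57 of the 107 members and 39.2% of all genes. Scaling by total count left 2 calls, CCDC146 and CCDC18, and moved the median of all genes to -0.19 and that of members to 0.49, a difference of 0.68 as with the deposited size factors. Over all genes it turned 376 higher and 234 lower calls into 87 and 96.

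Counts of some members are uncertain. No source used here says how featureCounts handled strand or reads with several matches. Exons of called members overlapped those of other genes by at most 6.08% of their length (CCDC18 with TMED5 on the opposite strand). CCDC107 shares 76.1% of its exonic length with ARHGEF39 on the opposite strand, and CCDC74A (log2 fold change 0.23) and CCDC74B (0.45) are near-identical copies. The 15 members below the mean of 10 included CCDC79 and CCDC83 of the germ line list and CCDC37, CCDC38 and CCDC63 of the cilium list, and their highest value in any library was 17.3 normalised counts, for CCDC42B.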

How the data were processed

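The authors made libraries of ribosome-depleted RNA from 3 inputs and 3 ORC1 IPs. The submitters' processing notes name Trimmomatic, STAR, featureCounts and hg19/GRCh37. The authors deposited a signal for each gene and library, that is counts over a library's size factor, and whole reads were recovered for 100% of values (tolerance 0.001). The authors' deposited log2 fold changes with standard errors, Wald score and p-values were not used.

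Differences were tested on log2(normalised count + 1), for 16513 genes with a mean of at least 10 over the 6 libraries, with limma 3.58.1 (intensity trend, R 4.3.3, no block) and Benjamini-Hochberg adjustment over all of them, at 0.05. This scale understates the change of low genes. The mean of the filter was taken over inputs and IPs together, so a gene with low inputs could pass through its IPs. Fits were tested on simulated data. edgeR 4.0.16 and DESeq2 1.42.0 on recovered reads, other scalings, pseudocounts and filters, a replicate block and leaving out each library were alternatives. Replicate numbers pair the samples by label (1 RIP experiment each); deviations from group means correlated by -0.32, -0.24 and 0.22 in replicates 1, 2 and 3.

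Named were all called genes, the 12 largest positive and 8 largest negative fold changes, the 5 highest in inputs, the most abundant member of each role list, and genes that a small count refers to. CCDC138, CCDC125, CCDC93, CCDC107 and the CCDC74 copies were added after their values were seen. The members, lists and feature thresholds were chosen with earlier results of these data known. Transcript features are of Ensembl canonical transcripts in GENCODE v44 (GRCh38), matched by Ensembl ID for 122 of 122 members, 23 of the 107 tested under another symbol. The hg19 annotation used for counting was not used here. Precision was limited by 3 libraries a group.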

Additional observations from a re-analysis of the deposited data

How the results depend on the processing

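No CCDC gene was called lower under any alternative, where 0.139% (without input replicate 3) to 6.38% (without ORC1 IP replicate 2) of all genes were. The median log2 fold change of the members stayed between 0.49 (scaling by total count) and 0.86 (without ORC1 IP replicate 3). The 15 genes called higher became 2 with scaling by total count, 8 with limma without the intensity trend and 25 with DESeq2, where 0.527%, 0.866% and 7.67% of all genes were called higher against 2.28%. Leaving out 1 library gave 0 to 27 (0.0363% to 11.9% of all genes). With the replicate block limma called 17 (2.62% of all genes), losing CCDC110 and CCDC62 and gaining CCDC112, CCDC147, CCDC174 and CCDC41. With the block edgeR called 16 (2.58% of all genes), losing CCDC110, CCDC62 and CCDC136 and gaining CCDC112, CCDC174, CCDC41 and CCDC77. Without the block edgeR called 15 (2.57% of all genes), losing CCDC110 and CCDC34 and gaining CCDC174 and CCDC77. Among the named genes, CCDC86 turned positive with edgeR (0.30) and DESeq2 (0.28) and ran from -0.89 to 0.57 when 1 library was left out. CCDC124 turned to -0.12 with scaling by total count and ran from -0.67 to 0.69. CCDC159 ran from -0.94 to 0.0030. The cause was not tested. Depth limited the low members most, since 15 were below the mean of 10 and CCDC147 had an input with no read.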
